A study of Homo sapiens with 2 samples.

Results

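CYP26A1, RARG and CDX4 are 2 genes of the retinoic acid pathway and 1 posterior homeobox gene, chosen by symbol from the authors' deposited table of called genes, in which they are 3 of 425 rows. They were proposed with their values in view, so the contrast below is a description of the 3 genes and no test was made on it. The table compares 2 cultures of HES2, an established human embryonic stem cell line. The control expressed PB and the other culture expressed PB-Tfcp2l1ΔCP2. The name of this construct stands for Tfcp2l1, a transcription factor of the CP2 family, with a part called CP2 deleted, and the labels spell out neither PB nor the species of the insert. Both cultures received a basal medium with 10% KSR (a serum replacement), FGF2 and Activin A, each at 10 ng/ml, for 2 passages before total RNA was taken and sequenced. Each group had 1 library, so no difference below has a replicate check and all statements describe these 2 libraries. In bulk RNA, fewer cells expressing a gene and less RNA per cell cannot be told apart.

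Retinoic acid is made from vitamin A and acts through nuclear receptors: a retinoic acid receptor (RARA, RARB or RARG) pairs with a retinoid X receptor and binds paired half-sites in DNA. Enzymes of the CYP26 family hydroxylate retinoic acid and so clear it, and CYP26A1 is itself a known retinoic acid target, which makes a feedback loop. In the gastrulating embryo CYP26A1 is known from the primitive streak and tailbud, where it keeps retinoic acid low, while caudal-type (CDX) homeobox factors, CDX4 among them, act with WNT and FGF signals on posterior identity and on HOX genes.

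In the PB-Tfcp2l1ΔCP2 library the hydroxylase gene CYP26A1 and the caudal gene CDX4 were higher, with overlapping intervals of their folds, and the receptor gene RARG was lower. By recovered reads, CYP26A1 was 3.35-fold higher (95% counting interval 2.68 to 4.23), CDX4 was 3.11-fold higher (2.09 to 4.71) and RARG was 2.60-fold lower (2.30 to 2.95). The reads were recovered from the deposited p-values, and the intervals cover counting error only. Of the other retinoic acid genes looked up, none had a row. Of 39 HOX genes and the other CDX genes, none had a row either, and a gene without a row is not thereby unchanged. Of 22 posterior streak and tailbud genes 5 had a row, all higher, and so had 5 of 13 anterior streak genes. These lists were chosen with earlier results of these data known. Of all genes tested by the authors 1.1% have a row as higher and 1.23% as lower.

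The regulatory sequence next to the starts of these genes is shown because CYP26A1 is a known direct target of the receptors to which RARG belongs. RefSeq windows on GRCh38.p14, from 250 bases before to 50 after a start, were found for all 3 genes: 2 for CYP26A1, which has 2 starts, and 1 each for RARG and CDX4. The stretches below run 5′ to 3′ on the gene's strand. The first is chr10:93073225-93073474 (plus strand), the 250 bases before the upstream start of CYP26A1, with a CDX motif (TTTATG) and 2 E-boxes (CACGTG) in capitals. The second is chr10:93073797-93073826 (plus strand), 96 to 67 bases before the downstream start of CYP26A1, with 2 retinoid half-sites in capitals. By GENCODE version 29 these 30 bases lie in the first, noncoding exon of the transcript from the upstream start. The sequence of CDX4 is chrX:73446803-73447052 (plus strand), the 250 bases before the CDX4 start, with an octamer (ATGCAAAT) in capitals. That of RARG is chr12:53232260-53232459 (minus strand), 250 to 51 bases before the RARG start, without capitals because no motif searched was found in the RARG window. Apart from these 30 bases, no exon of the same gene covers any stretch shown.
CYP26A1 upstream start: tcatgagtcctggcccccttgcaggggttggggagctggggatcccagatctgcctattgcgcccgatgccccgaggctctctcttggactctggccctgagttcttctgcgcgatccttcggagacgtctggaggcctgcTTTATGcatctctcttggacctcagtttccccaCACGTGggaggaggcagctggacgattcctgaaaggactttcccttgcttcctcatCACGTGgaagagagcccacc
CYP26A1 retinoid repeat: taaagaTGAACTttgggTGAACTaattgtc
CDX4: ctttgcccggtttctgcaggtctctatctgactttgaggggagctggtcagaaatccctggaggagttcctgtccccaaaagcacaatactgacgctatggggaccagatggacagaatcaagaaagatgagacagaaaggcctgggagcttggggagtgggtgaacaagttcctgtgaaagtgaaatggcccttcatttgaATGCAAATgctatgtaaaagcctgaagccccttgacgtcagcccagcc
RARG: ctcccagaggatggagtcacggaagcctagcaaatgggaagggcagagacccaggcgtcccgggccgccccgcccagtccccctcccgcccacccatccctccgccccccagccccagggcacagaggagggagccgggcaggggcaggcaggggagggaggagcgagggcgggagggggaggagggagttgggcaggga

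The retinoid half-sites searched, on both strands as for every motif here, were the consensus AGGTCA, its variant AGTTCA, another variant GGGTCA and the last variant GGTTCA. The downstream CYP26A1 window held 2 of them in the same orientation, both reading AGTTCA on the opposite strand and separated by 5 bases, the spacing known as DR5 at which these receptors classically bind. Such a repeat of any of the 4 half-sites was present in 31 of 35116 RefSeq windows (0.0883%), and single half-sites in 38.6%. The RARG and CDX4 windows held no half-site. Repeats spaced by 2 bases (0.0399% of windows) or by 1 base (0.131%) were in none of the 4 windows. The CDX motif, TTTATG or TTTATA, was in both CYP26A1 windows and in 19.6% of all windows. In the downstream window it began 31 bases before the start, where it overlaps a TATA box (TATAAA, 11.5% of windows) completely, so these 2 matches are the same bases. The octamer, a sequence bound by POU factors, began 48 bases before the CDX4 start and was in 1.77% of all windows. None of the 4 windows held a TCF/LEF motif (CTTTG followed by AA, AT, TA or TT, in 13.8% of windows), a T-box motif (AGGTGTGA or AGGTGTTA, 1.39%), a FOXH1 motif (TGTNNATT, 11% of windows) or a CP2 pair (CCAG, then any 6 bases, then CCAG or CCGG, in 7.39% of windows). E-boxes were in 7.26% of windows. The share of G and C was 68% in the RARG window, 60.3% and 67.7% in the upstream and downstream CYP26A1 windows and 50.7% in the CDX4 window, against a median of 58.7% over all windows. A match is a run of letters in this window and shows no binding.

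**Figure D1:**
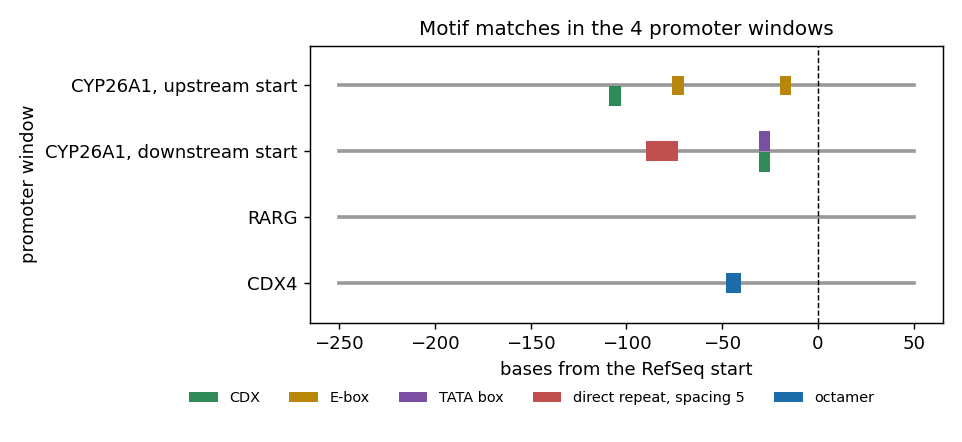
Motif matches in the 4 promoter windows, plotted by the distance in bases from the RefSeq start (dashed line), with 1 row per window and 1 colour per motif. The repeat of retinoid half-sites begins 90 bases before the downstream CYP26A1 start, the octamer 48 bases before the CDX4 start, and the RARG row carries no match.

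CYP26A1 (Gene ID 1592), which encodes the cytochrome P450 that hydroxylates retinoic acid, had an expression value of 2.05 in the PB library and 6.90 in the PB-Tfcp2l1ΔCP2 library. These values rest on 100 and 343 reads, and the Poisson intervals of the 2 values, 1.67 to 2.49 and 6.19 to 7.67, do not overlap. All rows of the table were selected on these same reads. Nothing is therefore read from the lack of overlap between the libraries, here or for RARG and CDX4 below. The ratio of the CYP26A1 values was 3.37, and the difference on the log2(value + 1) scale was 1.37. That scale adds 1 to each value and shrinks the difference of low genes. The unit of the values is called only expression in the table. Over the 3 genes there were 21.6 to 23.6 reads for each unit of value and kilobase of deposited length, so that the values behave as reads per length, though the search for reads was itself limited to pairs near the values.

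RARG (Gene ID 5916), which encodes retinoic acid receptor gamma, had a value of 13.7 in the PB library and 5.33 in the PB-Tfcp2l1ΔCP2 library, on 909 and 357 reads. It was the most highly expressed of the 3 genes in the control, with the 22nd highest control value of the 425 rows. Its Poisson intervals, 12.9 to 14.7 and 4.79 to 5.91, do not overlap. The control value was 2.58 times the other, and the difference on the log2(value + 1) scale was -1.22. The table gives 1 value for the gene, so the receptor's isoforms, which come from different starts and exons, were not separated.

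CDX4 (Gene ID 1046), which encodes a caudal-type homeobox factor, had a value of 1.84 in the PB library and 5.73 in the PB-Tfcp2l1ΔCP2 library. It had the fewest reads of the 3 genes, 34 and 108, and hence the widest intervals, 1.27 to 2.57 and 4.70 to 6.92, which do not overlap. The ratio of the values was 3.11, and the difference on the log2(value + 1) scale was 1.24. The deposited length of 855 bases equals the coding length of CDX4 with its stop codon in GENCODE version 29, whose only CDX4 transcript is 1515 bases long. A level per length therefore rests on a coding-only model here. The lengths deposited for CYP26A1 (2127 bases) and RARG (2839 bases) are near those of whole transcripts (2125 and 2959 bases).

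**Figure D2:**
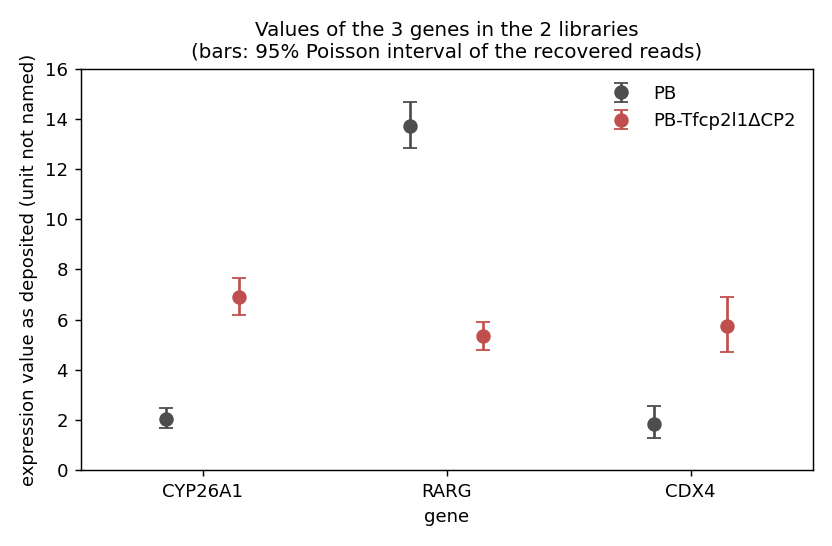
Deposited expression values (unit not named in the table) of CYP26A1, RARG and CDX4 in the PB library (grey) and the PB-Tfcp2l1ΔCP2 library (red), 1 library each, with bars for the 95% Poisson interval of the recovered reads. CYP26A1 goes from 2.05 to 6.90 and CDX4 from 1.84 to 5.73, while RARG goes from 13.7 to 5.33, so that the 3 genes lie between 5.33 and 6.90 in the PB-Tfcp2l1ΔCP2 library.

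The order of the levels per length differed between the libraries. In the PB library RARG was at 6.70 times the value of CYP26A1 (counting interval 5.44 to 8.32), and CYP26A1 at 1.11 times that of CDX4 (0.748 to 1.70), a difference within counting error. In the PB-Tfcp2l1ΔCP2 library CYP26A1 came first, then CDX4, then RARG. There CYP26A1 was at 1.20 times the value of CDX4 (0.967 to 1.51) and CDX4 at 1.08 times that of RARG (0.859 to 1.34), so neither neighbouring pair differed beyond counting error. The Poisson intervals of the first and the last, CYP26A1 and RARG, did not overlap there. The value of CYP26A1 over that of RARG went from 0.149 to 1.29. CYP26A1 is a row selected as higher and RARG one selected as lower, so a rise of this ratio was fixed by the selection. Nothing is read from it or from the change of order.

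Among the rows of the table the 3 genes were in the middle by ratio and in the upper part by level. CYP26A1 ranked 86th and CDX4 97th by ratio among the 201 higher rows, whose median ratio was 3.07. RARG ranked 105th among the 224 lower rows, whose median control value over PB-Tfcp2l1ΔCP2 value was 2.52. By level in the PB-Tfcp2l1ΔCP2 library CYP26A1 was 43rd, CDX4 53rd and RARG 56th of 425. In the control CYP26A1 was 152nd and CDX4 164th. All rows passed the same selection, at least 2-fold apart with an FDR no larger than 0.000984 in the authors' deposited table. These are p-values on the reads of 2 libraries and not on the conditions. Of 291 rows that reached a value of 1 in at least 1 library, 16.8% were at least 2-fold higher on the log2(value + 1) scale and 16.8% at least 2-fold lower. All 3 genes pass that threshold, from which nothing is read because they were chosen on this contrast.

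CYP26A1 and CDX4 were each other's nearest row when all named rows were compared by the Euclidean distance of log2(value + 1) over the 2 libraries (0.25). Next to CYP26A1 came MIXL1, a homeobox gene of the streak (2.68 to 7.27, distance 0.28), and SHISA3 (2.63 to 5.97, 0.31). Next to CDX4 came FST, which encodes the activin antagonist follistatin (2.25 to 4.66, 0.32), and CHGB (2.36 to 4.81, 0.32). The rows nearest to RARG were ATCAY (13.9 to 5.77, 0.098), the adhesion molecule gene ICAM3 (13.7 to 6.06, 0.16) and the matrix metalloproteinase gene MMP9 (12.4 to 5.93, 0.19). With 2 libraries this distance compares 2 values only.

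**Figure D3:**
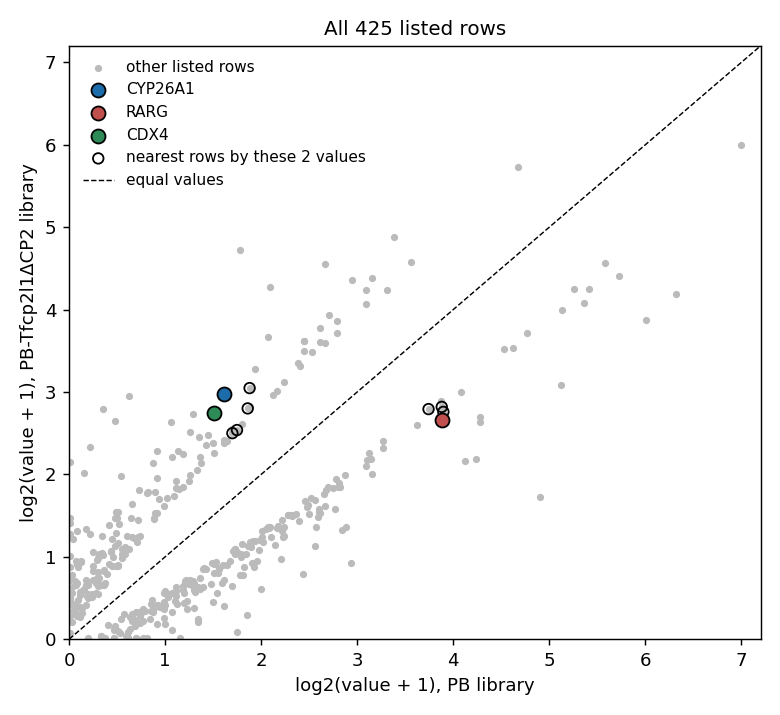
All 425 listed rows by log2(value + 1) in the PB library (x axis) and in the PB-Tfcp2l1ΔCP2 library (y axis), with the 3 genes in colour, their nearest rows as open circles and a dashed line at equal values. CYP26A1 and CDX4 lie side by side above the line, RARG lies below it, and the empty band along the line is the 2-fold selection of the table.

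The other genes of the pathway were looked up by role, from lists chosen with earlier results of these data known. By the ratio of FDR to p-value the authors tested 18250 genes, of which 425 (2.33%) are listed, 201 higher and 224 lower. By the same ratio the listed rows reach rank 3907, so 3482 genes of equal or better rank by p-value have no row. A gene without a row may thus have passed the FDR and been less than 2-fold apart, or been left out. Genes without a row were not analysed here, and nothing is said of their levels. None of 10 genes for uptake, storage and carriers (the cellular retinoic acid binding protein genes CRABP1 and CRABP2 among them) had a row, and none of 20 synthesis genes (such as RDH10 and ALDH1A2). In the degradation list CYP26A1 was 1 of 3 and higher, with CYP26B1 and CYP26C1 not listed. In the receptor list RARG was 1 of 6 and lower, with RARA, RARB and the 3 retinoid X receptor genes not listed. None of 9 coregulator genes had a row. In the list of 20 retinoic acid targets CYP26A1 was again the only listed gene, while RARB and DHRS3, which are known to respond to retinoic acid, were not listed. Over these 6 lists 2 of 60 genes were listed, both chosen genes.

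**Figure D4:**
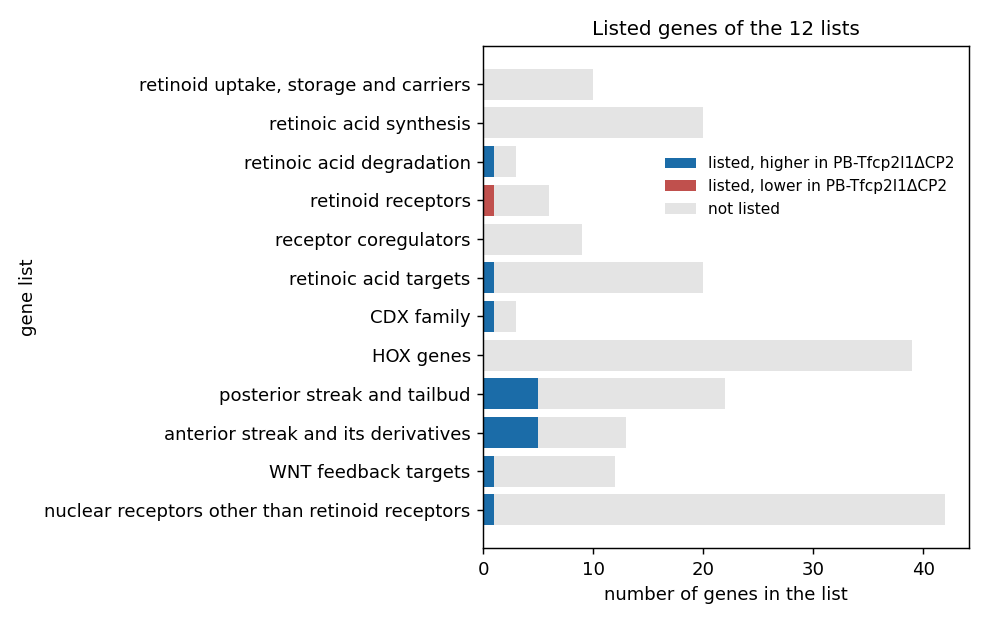
Number of genes in each of the 12 lists (x axis), split into listed and higher (blue), listed and lower (red) and not listed (grey). The retinoid lists hold CYP26A1 and RARG alone, no HOX gene is listed, and the 2 streak lists hold 5 listed genes each, all higher.

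Among posterior genes, CDX4 was 1 of 3 CDX genes and none of 39 HOX genes, which include known CDX targets, was listed. The posterior streak and tailbud list had 5 of 22 genes listed, all higher, where 1.1% of all tested genes were listed as higher. The median difference of the 5 on the log2(value + 1) scale was 0.88, beside 0.73 over the 201 higher rows and -0.36 over all 425. Since all 5 are higher rows of a table of called genes, nothing is read from these medians. FGF17, a ligand of the FGF8 subfamily, went from 0.16 to 4.04, on 5 reads and 128 (25.0-fold, 10.5 to 78.4). The brachyury gene T was at 0.05 in the control and at 0.93 in the other library, on 3 reads and 53 (17.3-fold, 5.60 to 86.4). FGF17 and T were thus near the floor in the control, where CYP26A1 and CDX4 already had 100 and 34 reads.

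NKX1-2, a homeobox gene of the caudal epiblast, went from 1.60 to 3.41, on 34 reads and 74 (2.13-fold, 1.40 to 3.29). The WNT-responsive factor gene SP5 went from 0.07 to 0.83, on 3 reads and 38 (12.4-fold, 3.93 to 62.7). SP5 was the only one of 12 WNT feedback targets listed. MIXL1 was 2.70-fold higher (2.20 to 3.35). MIXL1, NKX1-2, CYP26A1 and CDX4 all had control values above 1 and folds between 2.13 and 3.35. FGF17, T and SP5 had control values of 0.16 or less and folds of 12.4 or more. The control value is part of the fold, and a gene with few control reads is listed as higher only at a large fold. Nothing is therefore read from this split. Among anterior streak genes CER1 (2.43 in the control, 10.5-fold) and LHX1 (0.19, 5.74-fold) belong to neither group, while EOMES and SOX17 match the second.

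The anterior streak list had 5 of 13 genes listed, also all higher (EOMES, CER1, LHX1, SOX17 and FOXA2). Over all tested genes 1.1% were listed as higher and 1.23% as lower. CER1, which encodes a Nodal, BMP and WNT antagonist, was 10.5-fold higher (8.11 to 13.7), and EOMES 31.3-fold (15.6 to 73.2). CYP26A1 and CDX4 were thus listed alongside genes of both streak lists, and whether the 2 lists differ was not tested. RARG was the only gene of these 12 lists that was lower. Of their 187 genes 14 were listed, 13 higher and 1 lower, beside the shares of 1.1% and 1.23% over all tested genes. Of the 13 higher genes 11 are not among the 3 chosen genes. The lists were chosen with earlier results of these data known, so nothing is read from RARG standing alone.

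**Figure D5:**
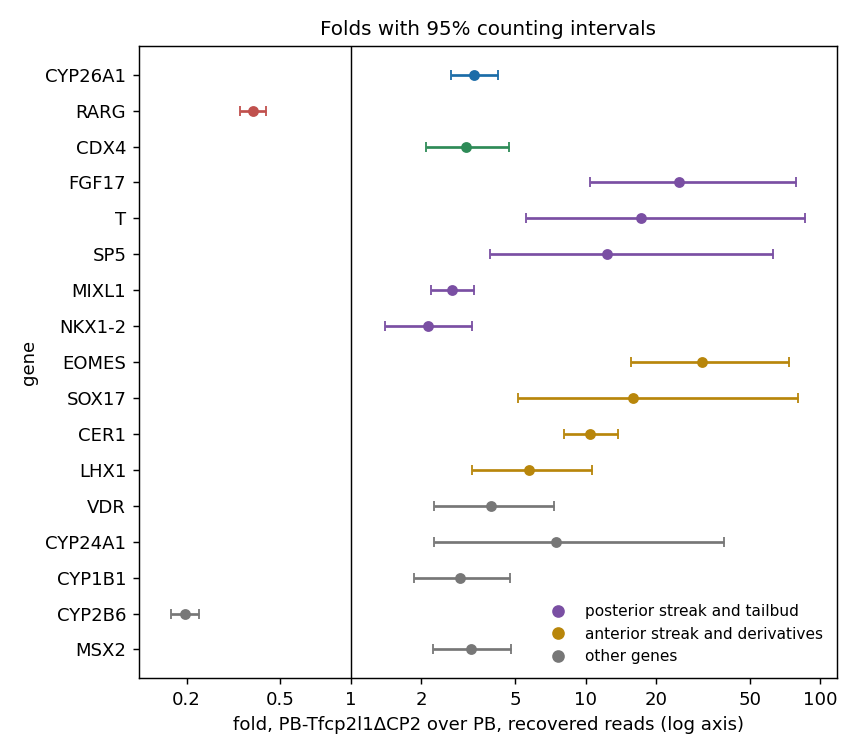
Folds of the PB-Tfcp2l1ΔCP2 library over the PB library from recovered reads (log axis), with 95% counting intervals, for the 3 chosen genes, listed streak genes and other listed genes named in the text. CYP26A1 (3.35) and CDX4 (3.11) lie near MIXL1 (2.70), NKX1-2 (2.13), MSX2 (3.24), CYP1B1 (2.93) and VDR (3.97), to the left of FGF17, T and SP5. RARG and CYP2B6 lie below 1.

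The gene functions in the authors' deposited table put RARG and CDX4 under 1 shared process, regionalization, which 4 of the 425 rows carry: FOXA2, LHX1 and CDX4 were higher and RARG was lower. CYP26A1 shares no process term with the other two. It stands under negative regulation of signal transduction with 3 other rows (PRAME, IGFBP5 and THBS1), and all 4 were higher. Of all 425 rows 201 were higher, and the 3 genes were chosen on this contrast, so nothing is read from these directions.

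Of 10 pluripotent stem cell markers none had a row, so the labelled cell type could not be checked against them. Outside those 10, and picked after their values were seen, the pluripotency-associated genes ZFP42 (5.08 to 1.99) and DPPA3 (5.08 to 1.92) were lower. None of 7 neuroectoderm and none of 7 mesoderm markers were listed either. That mesoderm list leaves out T, MIXL1 and EOMES, which were counted with the streak genes above and were higher. No endoderm list was made, and SOX17 and FOXA2, counted with the anterior streak genes, were also higher. The marker lists therefore do not show that cells of these kinds were absent. Of 7 trophoblast markers TFAP2A was listed (0.11 to 0.53), and of 7 fibroblast markers COL1A1 (41.6 to 18.0). The part of other cell types in the values of CYP26A1, RARG and CDX4 was not tested. TFCP2L1 had no row among those used here, so the construct could not be checked from the values. CYP26A1 overlaps exons of AL358613.3, a noncoding model on the same strand in GENCODE version 29, and how reads were assigned there is not given in the sources used here. No exon of another gene overlaps RARG or CDX4.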

How the data were processed

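RNA of 2 libraries, 1 per group, was compared. Per the submitters' processing notes the tool Bowtie 0.12.2 and the build hg19 were used, in roles not stated. How genes were counted and tested is not given in the sources used here. The authors' deposited expression values form a non-negative signal of unnamed unit. The deposited log2 fold change is the log2 ratio of these values. The deposited p-values and their FDR are the authors' own, on the reads of 1 library against the other. The deposited length is in bases, per the file headers.

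Whole reads were recovered by inverting a 2-sided Audic-Claverie p-value. The ratio of library totals (PB-Tfcp2l1ΔCP2 over PB) was 1.02, shared by all 19 rows with no control read. Exactly 1 pair of reads matched the p-value, to a relative tolerance of 5e-06, in 410 of 425 rows (96.5%), the 3 chosen genes included. The library totals themselves are not given, so depth is known only through these reads. The search was tested on simulated data. That the authors used this formula is inferred from the p-values alone. Folds are ratios of reads over 1.02 with exact conditional binomial (Clopper-Pearson) 95% intervals. Where the control had no read, the fold is given against 3 counts in its place, which leaves out error in the reads of the other library. Reads that are not independent molecules would make these intervals too narrow.

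The members and lists were chosen with earlier results of these data known. The genes named are the 3 genes, every listed gene of the lists and the 3 nearest rows of each gene; others were chosen after their values were seen. Coordinates refer to GRCh38.p14 and come from RefSeq, not from the table. Motifs were searched after the windows had been read. Python 3.11.15 with scipy 1.17.1 was used.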

Additional observations from a re-analysis of the deposited data

How the results depend on the processing

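The directions of CYP26A1, RARG and CDX4 were the same under every setting tried, but no setting could have reversed them. A pseudocount (0.5, 5 or none) cannot change a direction. Recovered reads come from p-values of rows already called in that direction. The remaining setting was scaling to the total of the listed rows (0.79, PB-Tfcp2l1ΔCP2 over PB). It is too small to reverse rows at least 2-fold apart. The yardstick for size was the half-width of the log2 counting interval, which reflects read depth and does not measure a change of pseudocount. By it the size of the log2 difference moved for CYP26A1 (1.37) to 0.76 with a pseudocount of 5, 1.75 with no pseudocount and 1.75 by recovered reads. For RARG (-1.22) it moved to -0.86 with a pseudocount of 5 and to -0.92 with the scaling, which shifts high values by 0.34 and rests on called genes only. CDX4 moved by more than 1.5 times with a pseudocount of 5 (1.24 against 0.65), which lies within its wide half-width (0.60). The 14 listed genes of the 12 lists (13 higher, 1 lower) were 9 (8 and 1) where a value of at least 1 was asked for in 1 library or the other and 7 (6 and 1) at 2-fold or more on the log2(value + 1) scale. They were 12 (11 and 1) with at least 50 reads. No paired analysis was possible because there was 1 library per group. Depth limits genes with few control reads, such as FOXA2 and PRAME (none), T, SP5, SOX17 and CYP24A1 (3 each) and FGF17 (5).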

Other observations

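The genes in this paragraph were chosen after their values were seen. The table lists 4 cytochrome P450 genes, 3 higher and 1 lower, where 1.1% of all tested genes were listed as higher and 1.23% as lower. How many cytochrome P450 genes were tested is not known, so nothing is read from this count. Besides CYP26A1, CYP24A1, the vitamin D hydroxylase, went from 0.04 to 0.30, on 3 reads and 23 (7.50-fold, 95% counting interval 2.26 to 39.0). VDR, the vitamin D receptor, which also pairs with retinoid X receptors, was the only one of 42 other nuclear receptor genes listed (0.15 to 0.58, 3.97-fold, 2.27 to 7.35). CYP24A1 is a known target of VDR, and both were at low values. CYP1B1 went from 0.22 to 0.63 (2.93-fold, 1.86 to 4.76), and CYP2B6 from 17.9 to 3.56 (5.09-fold lower, 4.43 to 5.85). The split of reads between CYP2B6 and its near-identical pseudogene is uncertain.

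PRAME, known as a repressor of retinoic acid receptor signalling, had 21 reads in the PB-Tfcp2l1ΔCP2 library and none in the control. With 3 counts put in as the floor of the control library, the fold came to 6.84. The exact 95% counting interval, which also allows for error in the 21 reads, starts at 5.09. It is 1 of 3 rows annotated with retinoic acid receptor binding, with VDR (higher) and RARG (lower). The table describes 5 genes with the word homeobox, all higher: CDX4, MIXL1, NKX1-2, LHX1 and MSX2 (0.75 to 2.42, 3.24-fold, 2.24 to 4.79). POU3F4, a homeobox gene of the POU class whose description lacks that word, was lower (1.00 to 0.14). Over all tested genes 1.1% were listed as higher and 1.23% as lower. How many homeobox genes were tested is not known, and CDX4 was chosen on this contrast, so nothing is read from these directions. Of the protein-coding neighbours of the 3 genes in RefSeq, only MYOF, on one side of CYP26A1, had a row (0.31 to 0.73, 2.39-fold higher, 1.70 to 3.41). The neighbour on the other side, CYP26C1, had none.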
